A study of Mus musculus with 8 samples.

Results

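The genes described here encode the core of extrinsic, or receptor-driven, apoptosis: the ligand TRAIL (Tnfsf10), the receptors Tnfrsf10b, Fas and Tnfrsf1a, the adaptors Fadd, Tradd and Ripk1, the initiator protease Casp8, its regulator Cflar, and the caspase substrate Bid. They were chosen by name, with earlier results of these data known. Each has a row among the 45556 named genes of the count table. All 10 passed the filter on low counts that left 13500 genes for testing, but Tnfsf10 and Fas passed only through their IFN-γ libraries, having at most 3 counts in any unstimulated library.

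The libraries are RNA sequencing of B16F10, an established mouse melanoma cell line derived from C57BL/6 mice and grown widely as a syngeneic tumour. The 8 libraries fall in 4 groups of 2: shDRG2 cells with IFN-γ, pLKO cells with IFN-γ, unstimulated shDRG2 cells and unstimulated pLKO cells. The shDRG2 line carries a hairpin against Drg2, a GTP-binding protein gene, and the pLKO line the hairpin vector without it. IFN-γ (interferon-γ, a cytokine of T and NK cells) was recombinant mouse protein at 5 ng/ml for 24 hours. Each line is present once, so a line difference and an effect of lower Drg2 cannot be told apart, and whether replicates were separate cultures is not stated: p-values here reflect only how far these libraries spread, which may be technical. Drg2 itself stood at 6.46 to 9.34 CPM (the count scaled to a common library size) in the 4 shDRG2 libraries, against 64.3 to 76.3 CPM in the 4 pLKO libraries, 9.63-fold lower with IFN-γ (adjusted p = 7.80e-07) and 8.06-fold lower without it (adjusted p = 1.53e-06, edgeR quasi-likelihood test). Library totals ran from 25422758 to 36654519 counts. All 7 melanocytic markers averaged at least 1 CPM (Dct the highest, at 3877 CPM), while 4 of 6 leukocyte markers (Cd3e, Itgam and Adgre1 among them), 2 of 4 endothelial markers (Cdh5 and Kdr) and 1 of 4 epithelial markers (Epcam) had no count in any library. The highest leukocyte marker, Lyz2, stood at 0.0999 to 0.313 CPM and the highest epithelial marker, Cdh1, at 0.164 to 0.657 CPM. The highest fibroblast marker, Col1a2, stood at 3.26 to 18.9 CPM and the highest endothelial marker, Vwf, at 0.246 to 5.35 CPM.

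A ligand of the TNF family binds a trimer of receptors whose cytoplasmic death domains then recruit adaptors. TRAIL and Fas ligand receptors recruit FADD, which brings in the caspase encoded by Casp8 through paired death effector domains. cFLIP, the product of Cflar, resembles that caspase but lacks its activity and competes for the same complex. TNF receptor type I, encoded by Tnfrsf1a, first binds TRADD and RIPK1, a complex that signals mainly to NF-κB and only later to cell death. BID, once cut by the caspase, carries the signal to mitochondria. In mice Tnfrsf10b encodes the death-domain receptor for TRAIL, and it is a known p53 target. Genes that answer interferon-γ often carry GAS or ISRE-like elements in their promoters, the DNA sites of its transcription factors.

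Since most members moved with IFN-γ, their promoters are shown where the letters of those elements occur, together with that of Tnfsf10, the member with the largest rise. The windows run from 250 bases before to 50 bases after a gene's start and come from RefSeq (GRCm38.p6); 8 of the 10 members have one, the others being Tnfrsf10b and Tradd. The GAS search used TTCNNNGAA and the ISRE-like search GAAA, any 2 bases and GAAA again, on both strands, and matches are in capitals. Across all 32851 windows, 8.30% held the GAS letters and 3.44% the ISRE-like letters. The windows are chr3:27316827-27317126 for Tnfsf10, chr19:34290409-34290708 for Fas, chr6:125349473-125349772 for Tnfrsf1a, chr1:58711241-58711540 for Cflar and chr13:34002624-34002923 for the downstream one of the pair of Ripk1 windows, all on the plus strand.
Tnfsf10: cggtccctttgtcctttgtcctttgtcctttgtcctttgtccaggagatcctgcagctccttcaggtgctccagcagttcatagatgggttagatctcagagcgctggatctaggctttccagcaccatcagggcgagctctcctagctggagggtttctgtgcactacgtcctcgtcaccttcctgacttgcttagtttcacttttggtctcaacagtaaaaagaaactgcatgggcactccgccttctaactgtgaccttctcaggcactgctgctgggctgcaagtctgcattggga
Fas: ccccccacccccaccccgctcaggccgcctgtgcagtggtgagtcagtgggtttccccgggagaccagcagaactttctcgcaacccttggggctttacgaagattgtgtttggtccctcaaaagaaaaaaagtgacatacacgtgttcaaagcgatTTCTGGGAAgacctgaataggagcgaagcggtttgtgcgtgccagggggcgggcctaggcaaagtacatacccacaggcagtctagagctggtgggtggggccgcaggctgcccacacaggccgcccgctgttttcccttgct
Tnfrsf1a: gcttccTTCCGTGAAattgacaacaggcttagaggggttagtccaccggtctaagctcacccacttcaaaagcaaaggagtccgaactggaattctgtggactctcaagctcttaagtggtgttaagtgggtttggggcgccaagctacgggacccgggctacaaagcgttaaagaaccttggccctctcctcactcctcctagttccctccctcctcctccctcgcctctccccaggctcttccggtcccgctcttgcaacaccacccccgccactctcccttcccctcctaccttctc
Cflar: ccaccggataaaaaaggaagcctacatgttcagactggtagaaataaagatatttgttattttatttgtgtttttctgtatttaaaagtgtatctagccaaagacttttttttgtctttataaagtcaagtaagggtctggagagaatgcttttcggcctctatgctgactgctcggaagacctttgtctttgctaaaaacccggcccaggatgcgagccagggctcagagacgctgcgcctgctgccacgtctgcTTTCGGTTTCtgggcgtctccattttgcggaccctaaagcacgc
Ripk1: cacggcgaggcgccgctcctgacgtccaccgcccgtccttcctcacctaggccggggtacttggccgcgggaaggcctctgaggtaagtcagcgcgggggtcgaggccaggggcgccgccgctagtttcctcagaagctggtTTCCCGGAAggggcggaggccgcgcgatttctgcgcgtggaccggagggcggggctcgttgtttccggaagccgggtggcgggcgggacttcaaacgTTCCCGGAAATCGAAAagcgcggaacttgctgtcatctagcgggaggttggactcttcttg
Fas held 1 GAS match, beginning at base -93 from the start site, and Tnfrsf1a 1 GAS match, beginning at -244. Cflar held 1 ISRE-like match on the minus strand, at base 7 from it. The downstream Ripk1 window held 2 GAS matches, beginning at -108 and -11. Its ISRE-like match begins at -5 and overlaps the second of these. No match was found for Tnfsf10, Fadd, Casp8, Bid or the upstream Ripk1 window (chr13:34002113-34002412). The Casp8 window (chr1:58802252-58802551) lies inside the gene as annotated (start at 58795374), so the bases around that start were not searched. The same holds for the Tnfrsf1a window (annotated start at 125349362). The downstream Ripk1 window also lies inside its gene (annotated start at 34002363), and the upstream one covers that start. Distances are from the RefSeq start of each window, so the Tnfrsf1a and Ripk1 matches lie downstream of the annotated starts. These matches are letters in a window, and binding was not measured.

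The transcripts of the pathway differed widely in abundance. Per kilobase of annotated exon, Tnfrsf1a led in all 4 groups, at 60.6 ± 5.48 CPM per kb in shDRG2 cells with IFN-γ and 59.2 ± 3.84 in pLKO cells with IFN-γ, and at 22.3 ± 1.21 in unstimulated shDRG2 and 21.004 ± 1.44 in unstimulated pLKO cells (SD, n = 2 each). Casp8 and Cflar came next, between 13.6 and 23.2 CPM per kb in group means, and the replicate ranges of that pair overlapped with IFN-γ but not without it. Fadd, Tradd, Ripk1 and Bid formed a middle tier, between 7.19 and 15.7. The TRAIL receptor gene Tnfrsf10b stood far lower, between 1.07 and 3.35, and the group mean of Fas was 0.774 at most. With IFN-γ, Tnfsf10 stood at 3.49 in shDRG2 cells, above Tnfrsf10b without overlap, and at 2.48 in pLKO cells, where the pair overlapped. Without IFN-γ, Tnfsf10 had the lowest mean of the 10 in both lines, at 0.0125 in shDRG2 and 0.0117 in pLKO cells, overlapping Fas in shDRG2 cells. These levels depend on the length used: over the longest annotated transcript, a choice made after seeing the data, the mean of Cflar was above that of Casp8 in all 4 groups and above that of Tnfrsf1a in both unstimulated groups, and Tnfrsf10b stood above Tnfsf10 in pLKO cells with IFN-γ. Counts are per gene, so the long and short forms of cFLIP were not separated.

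**Figure D1:**
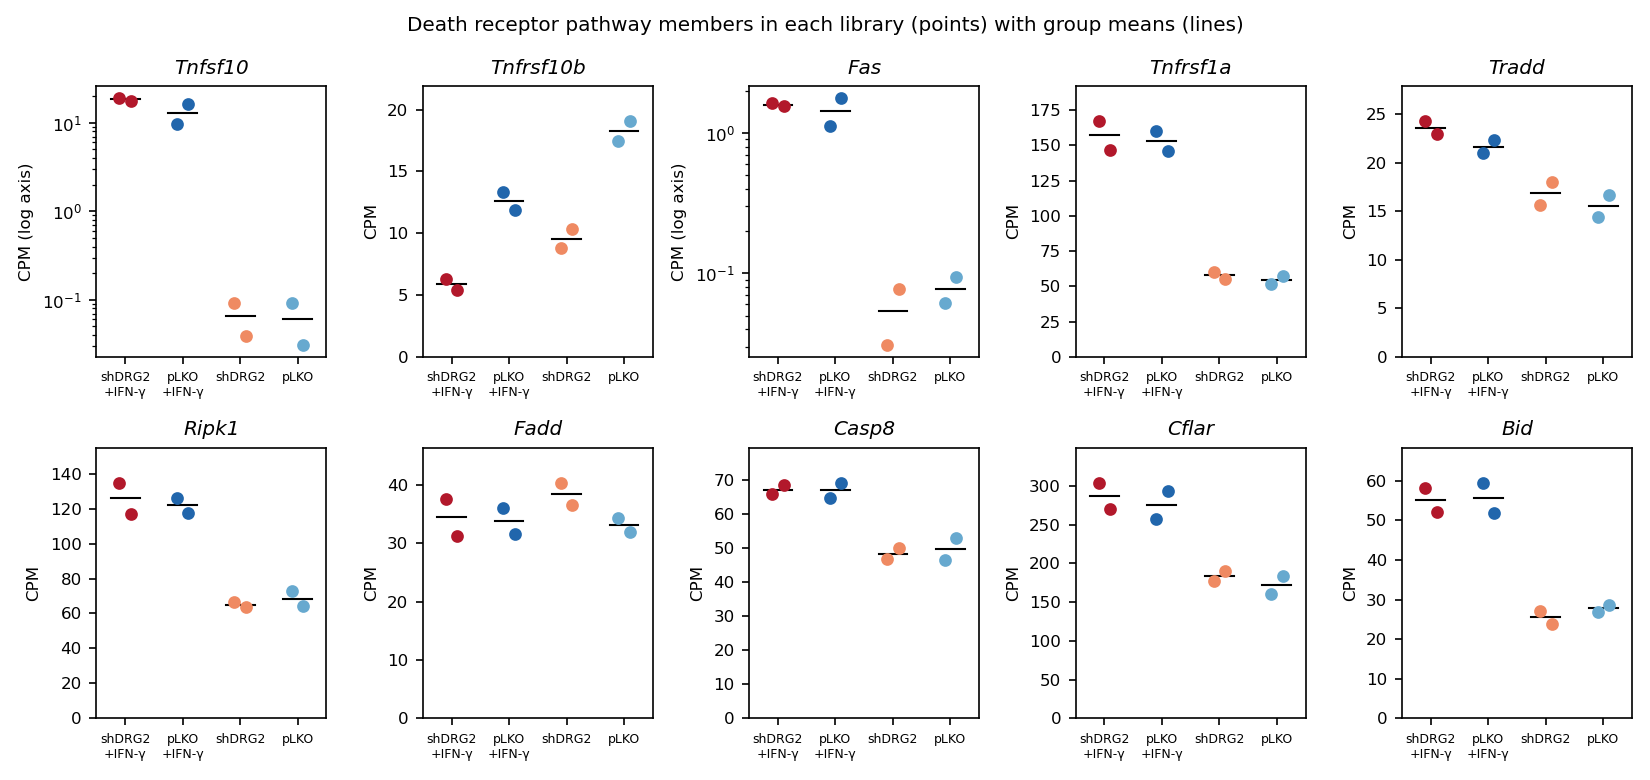
CPM of each of the 10 members (vertical axes, logarithmic for Tnfsf10 and Fas) in each library (points) of the 4 groups, with group means as lines. Tnfrsf10b is lowest in shDRG2 cells with IFN-γ, at 5.39 and 6.33 CPM, and Tnfsf10 and Fas are near 0 without IFN-γ.

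Between shDRG2 and pLKO cells 1 of the 10 members was called, and a member that was not called was not shown to be equal. Tnfrsf10b was lower in shDRG2 cells, by 2.16-fold with IFN-γ and by 1.91-fold without it, and none of the other 9 members was called in either condition. For comparison, 1.17% of the tested genes were called lower and 0.504% higher with IFN-γ, or 1.67% in either direction. Without IFN-γ 0.733% were called lower and 0.467% higher, or 1.2% in either direction.

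Tnfrsf10b (ENSMUSG00000022074.6, chromosome 14, 69767472 to 69784411, plus strand, GRCm38) stood at 6.33 and 5.39 CPM in IFN-γ-treated shDRG2 libraries, against 13.3 and 11.9 CPM in IFN-γ-treated pLKO libraries. Without IFN-γ it had 8.83 and 10.3 CPM in shDRG2 libraries, against 17.4 and 19.05 CPM in pLKO libraries. No pair of the 4 groups overlapped: shDRG2 cells with IFN-γ were lowest and unstimulated pLKO cells highest. The log2 fold change was -1.11 with IFN-γ (SE 0.138, 95% interval -1.42 to -0.80, adjusted p = 0.00410) and -0.93 without it (SE 0.132, interval -1.23 to -0.64, adjusted p = 0.00915; edgeR quasi-likelihood test, Benjamini-Hochberg over 13500 genes, as for all adjusted p-values here). With 2 libraries a group these calls rest on single libraries. With IFN-γ the adjusted p was 0.0531 without replicate 2 of shDRG2 with IFN-γ. In the unstimulated comparison it was 0.129 without shDRG2 replicate 1, 0.0526 without pLKO replicate 1 and 0.0709 without pLKO replicate 2.

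The other genes of chromosome 14 were also shifted towards lower levels in shDRG2 cells. The median log2 fold change of its 436 tested genes was -0.27 with IFN-γ and -0.28 without it, against 0.01 and 0.01 for the genes of all other chromosomes. Of those 436 genes, 42 were called lower with IFN-γ (9.63%) and 27 without it (6.19%), against 0.914% and 0.582% elsewhere. Tnfrsf10b lay below the chromosome's median by more than that shift, at -0.83 and -0.65 relative to it, and ranked as the 22nd and 29th lowest of the 436. Of its 5 nearest tested neighbours on each side, none was called in either condition. Closest were 4930480K23Rik at -0.87 with IFN-γ and -0.57 without it, Rhobtb2 at -0.28 and -0.35, and Chmp7, an ESCRT-III gene, at -0.24 and -0.30. Loxl2, a lysyl oxidase gene, stood at 1.77 and 1.83 (adjusted p = 0.277 and 0.243). The part of the chromosome-wide shift in the lower Tnfrsf10b level was not tested.

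**Figure D2:**
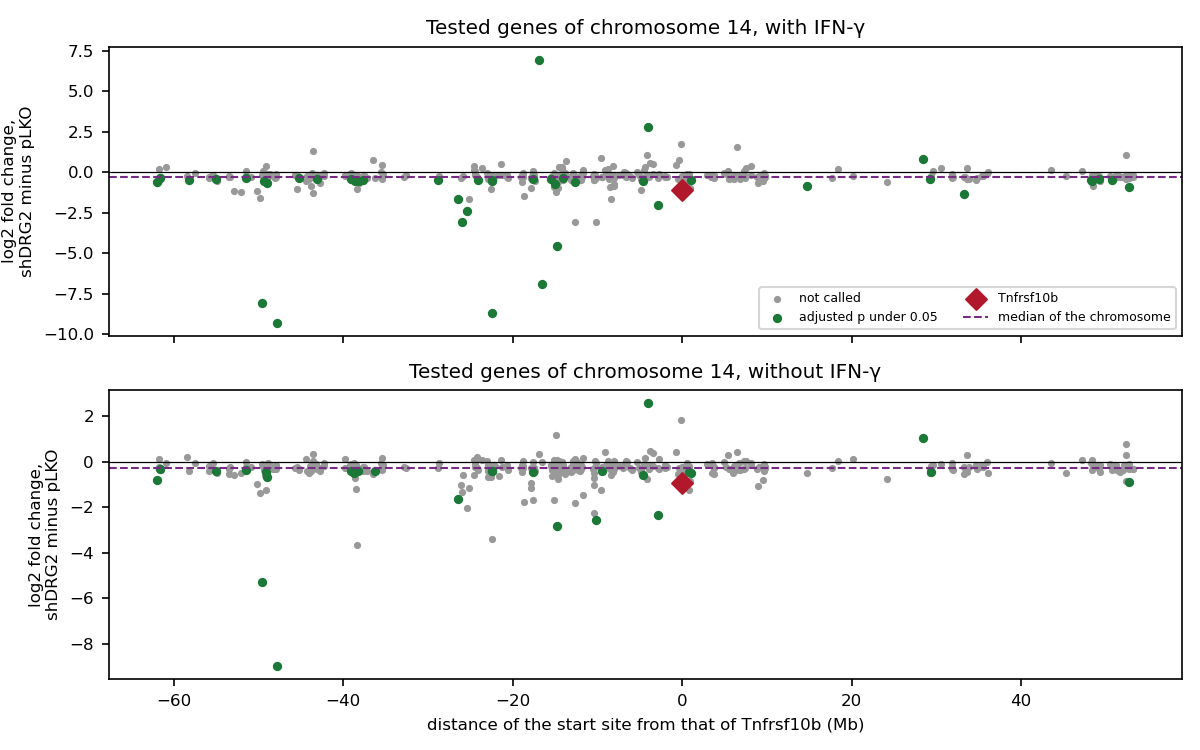
Log2 fold change between shDRG2 and pLKO cells (vertical axes) of the 436 tested genes of chromosome 14 against the distance of their start sites from that of Tnfrsf10b in Mb, with IFN-γ (upper panel) and without it (lower panel). Filled green points passed an adjusted p of 0.05, the dashed line is the chromosome's median (-0.27 and -0.28), and the diamond is Tnfrsf10b at -1.11 and -0.93.

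Tnfsf10, the TRAIL gene (ENSMUSG00000039304.11, chromosome 3, 27317028 to 27342427, plus strand), had 18.9 and 17.9 CPM in shDRG2 libraries with IFN-γ, against 9.75 and 16.4 CPM in pLKO libraries with IFN-γ. The groups did not overlap, but the pLKO replicates lay far apart. The difference of 0.49 on the log2 scale (interval 0.02 to 0.96) missed the threshold at an adjusted p of 0.388, was 0.17 without pLKO IFN-γ replicate 1 and 0.91 without replicate 2, and was called with no filter on low counts (adjusted p = 0.0369). Without IFN-γ, Tnfsf10 had 3 and 1 counts in shDRG2 libraries and 3 and 1 counts in pLKO libraries, too few to compare the lines.

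For the remaining 8 members no difference between the lines was called, and for all but Fas the data bound its size. Tnfrsf1a had 167 and 147 CPM in shDRG2 libraries with IFN-γ, against 160 and 146 CPM in pLKO libraries with IFN-γ, and the interval of the ratio ran from 0.889 to 1.18. For Casp8 that interval was 0.878 to 1.14 with IFN-γ and 0.850 to 1.11 without it. For Cflar it was 0.893 to 1.21 and 0.913 to 1.24. Ripk1, Tradd and Bid had intervals between 0.784 and 1.29 in both conditions, and Fadd between 0.859 and 1.21 with IFN-γ. Unstimulated Fadd had 40.4 and 36.5 CPM in shDRG2 libraries, against 34.3 and 32.0 CPM in pLKO libraries. Those groups did not overlap, and the log2 difference of 0.22 was not called (interval -0.03 to 0.46, adjusted p = 0.460). Tradd with IFN-γ, at 24.3 and 22.9 CPM in shDRG2 libraries, against 20.99 and 22.3 CPM in pLKO libraries, did not overlap either and was not called (log2 0.12, adjusted p = 0.771). Apart from Fas, the intervals of these members lay between 0.784 and 1.38 in both conditions, whereas the ratio of Tnfrsf10b was 0.464 with IFN-γ and 0.523 without it. Fas was too low for a narrow bound, with an interval of the ratio from 0.669 to 1.81 with IFN-γ and from 0.164 to 2.89 without it.

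**Figure D3:**
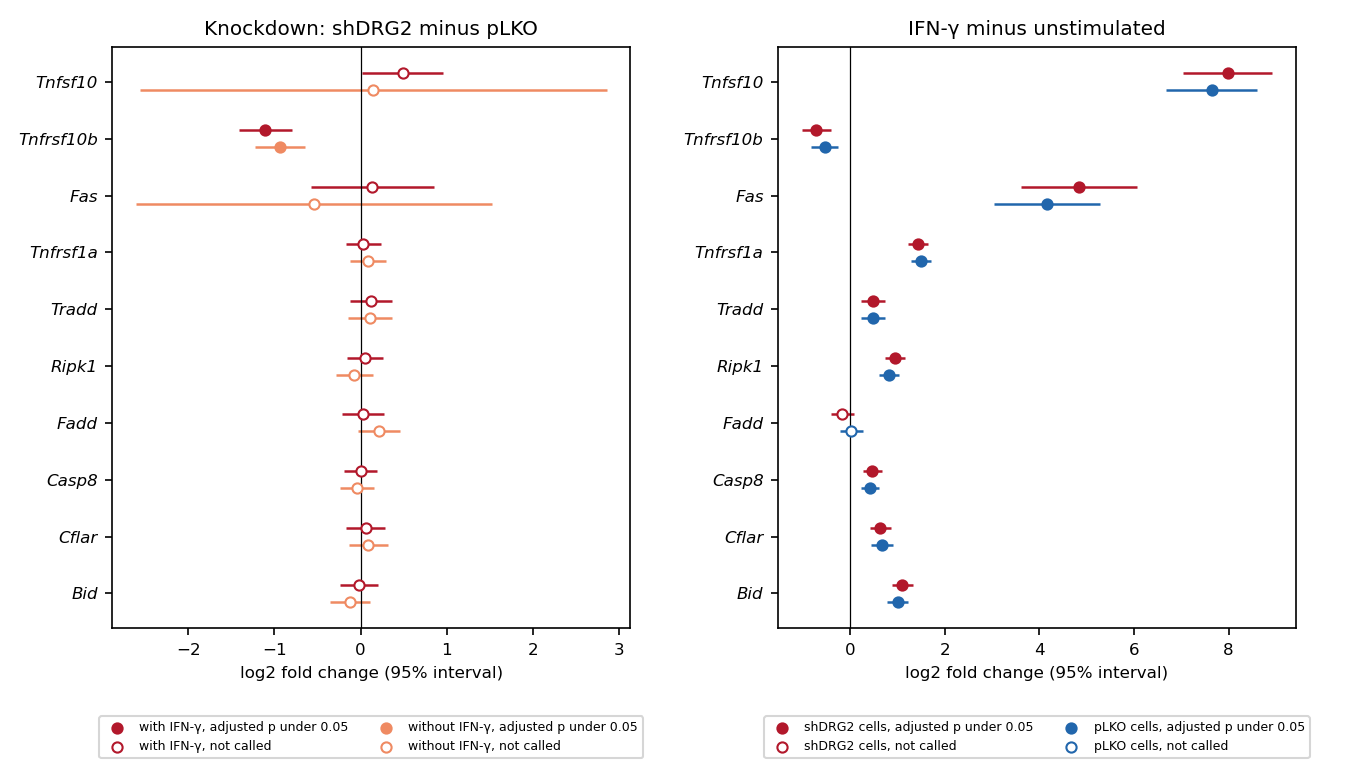
Log2 fold changes of the 10 members with 95% intervals (horizontal axes) for shDRG2 minus pLKO (left) and for IFN-γ minus unstimulated cells (right). Filled points passed an adjusted p of 0.05: on the left only Tnfrsf10b, and on the right all members but Fadd. Tnfsf10 and Fas passed the filter on low counts only through their IFN-γ libraries, so their filled points on the right are not read as tests.

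IFN-γ changed 9 of the 10 members in each line, and they were the same 9. Tnfsf10, Fas, Tnfrsf1a, Ripk1, Bid, Cflar, Casp8 and Tradd rose, Tnfrsf10b fell, and Fadd was not called. Across all tested genes, 16.2% rose and 15.2% fell in shDRG2 cells (31.4% in all), and 15.4% rose and 12.7% fell in pLKO cells (28.1% in all). Leaving aside Tnfsf10 and Fas, which could pass the filter only by being high with IFN-γ, 6 of 8 members rose and 1 fell in each line. The median of these 8 was 0.57 in shDRG2 and 0.58 in pLKO cells, against 0.00 and 0.01 over all tested genes.

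The ligand and the death receptors held both the largest rises among the members and the only fall. Tnfsf10 had 18.9 and 17.9 CPM in shDRG2 libraries with IFN-γ, against 0.0933 and 0.0388 CPM in unstimulated shDRG2 libraries. The pLKO libraries held 9.75 and 16.4 CPM with IFN-γ, against 0.0917 and 0.0313 CPM without it. The ratio was 266 in shDRG2 cells (1221 against 4 counts, 95% counting interval 104 to 977). In pLKO cells the ratio was 216 (800 against 4 counts, interval 84.2 to 796). No p-value is given, since Tnfsf10 passed the filter on low counts only through its IFN-γ libraries.

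Fas (ENSMUSG00000024778.13, chromosome 19, 34290666 to 34327772, plus strand) had 1.63 and 1.56 CPM in shDRG2 libraries with IFN-γ, against 0.0311 and 0.0775 CPM in unstimulated shDRG2 libraries. In the pLKO line there were 1.11 and 1.77 CPM with IFN-γ, against 0.0611 and 0.0938 CPM without it. The ratio was 30.8 in shDRG2 cells (106 against 3 counts, counting interval 10.2 to 152). In pLKO cells the ratio was 19.04 (88 against 5 counts, interval 7.86 to 60.1). Fas too passed the filter only through its IFN-γ libraries, so no p-value is given. Counting intervals cover counting error only. With IFN-γ, Fas had the lowest mean per kilobase of the 10 members in both lines.

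Tnfrsf1a (chromosome 6, 125349362 to 125362484, plus strand) had 167 and 147 CPM in shDRG2 libraries with IFN-γ, against 60.0 and 55.6 CPM in unstimulated shDRG2 libraries, a 2.72-fold rise (log2 1.44, SE 0.0948, adjusted p = 1.30e-06). With pLKO the values were 160 and 146 CPM with IFN-γ, against 51.8 and 57.1 CPM without it, a 2.82-fold rise (log2 1.49, SE 0.0949, adjusted p = 1.09e-06). Tnfrsf10b went the other way, with 6.33 and 5.39 CPM in shDRG2 libraries with IFN-γ, against 8.83 and 10.3 CPM in unstimulated shDRG2 libraries (log2 -0.71, SE 0.140, adjusted p = 0.00332). The pLKO libraries held 13.3 and 11.9 CPM with IFN-γ, against 17.4 and 19.05 CPM without it (log2 -0.53, SE 0.129, adjusted p = 0.0114). The pLKO call ended without pLKO IFN-γ replicate 2 (adjusted p = 0.0844) and without unstimulated pLKO replicate 2 (adjusted p = 0.0782). As a ratio of levels per kilobase, Tnfrsf1a exceeded Tnfrsf10b by 55.6 and 57.4 times in shDRG2 libraries with IFN-γ, 25.3 and 25.9 times in pLKO libraries with IFN-γ, 14.3 and 11.3 times in unstimulated shDRG2 and 6.25 and 6.30 times in unstimulated pLKO libraries. The 4 groups did not overlap in this ratio.

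Among the adaptors, Ripk1 (chromosome 13, 34002363 to 34037147, plus strand), the kinase of the TNF receptor complex, had 135 and 117 CPM in shDRG2 libraries with IFN-γ, against 66.4 and 63.8 CPM in unstimulated shDRG2 libraries. It had 126 and 117 CPM in pLKO libraries with IFN-γ, against 73.0 and 64.03 CPM without it. The rise was 1.93-fold in shDRG2 cells (adjusted p = 3.51e-05) and 1.78-fold in pLKO cells (adjusted p = 0.000108). Tradd (chromosome 8, 105258286 to 105264609, minus strand), which links the TNF receptor to that kinase, rose less, with 24.3 and 22.9 CPM in shDRG2 libraries with IFN-γ, against 15.6 and 18.0 CPM without it (1.40-fold, adjusted p = 0.00743). In the pLKO line there were 20.99 and 22.3 CPM with IFN-γ, against 14.4 and 16.7 CPM without it (1.39-fold, adjusted p = 0.00975). Its shDRG2 call ended without replicate 1 of either shDRG2 group (adjusted p = 0.0532 for the IFN-γ group and 0.0666 for the unstimulated one). Its pLKO call ended without pLKO IFN-γ replicate 2 (0.0593) or unstimulated pLKO replicate 1 (0.0941). Fadd (chromosome 7, 144577318 to 144582463, minus strand), the adaptor of the TRAIL and Fas receptors, had 37.6 and 31.3 CPM in shDRG2 libraries with IFN-γ, against 40.4 and 36.5 CPM without it, and these overlapped (ratio 0.895, interval 0.755 to 1.06). With pLKO the values were 36.0 and 31.6 CPM with IFN-γ, against 34.3 and 32.0 CPM without it (ratio 1.02, interval 0.860 to 1.21).

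Casp8 and Cflar are neighbours on chromosome 1 (Cflar at 58711508 to 58758884 and Casp8 at 58795374 to 58847503, both on the plus strand). Casp8, the initiator caspase gene, had 65.8 and 68.4 CPM in shDRG2 libraries with IFN-γ, against 46.8 and 49.9 CPM without it (1.39-fold, adjusted p = 0.00204). The pLKO libraries held 64.7 and 69.1 CPM with IFN-γ, against 46.4 and 53.0 CPM without it (1.35-fold, adjusted p = 0.00413, and 0.0518 without unstimulated pLKO replicate 1). Cflar, whose product restrains that caspase, had 304 and 270.0 CPM in shDRG2 libraries with IFN-γ, against 178 and 189.9 CPM without it (1.56-fold, adjusted p = 0.000741). In the pLKO line there were 258 and 294 CPM with IFN-γ, against 161 and 184 CPM without it (1.60-fold, adjusted p = 0.000612). The caspase and its regulator thus rose together, and the groups with and without IFN-γ did not overlap for either gene in either line. The ratio of Cflar to Casp8 per kilobase was 1.05 and 0.902 in shDRG2 libraries with IFN-γ and 0.909 and 0.970 in pLKO libraries with IFN-γ. Without IFN-γ it was 0.868 and 0.869 in shDRG2 and 0.793 and 0.792 in pLKO libraries. It was higher with IFN-γ in both libraries of each line, a description that was not tested. Over the longest transcripts the ratio was 1.82 and 1.55 in shDRG2 and 1.57 and 1.67 in pLKO libraries with IFN-γ, against 1.494 and 1.497 in unstimulated shDRG2 and 1.37 and 1.36 in unstimulated pLKO libraries. Of the 5 nearest tested genes on each side of this pair, none was called between the lines. With IFN-γ, Gm20257 rose (log2 1.92 in shDRG2 and 1.56 in pLKO cells, adjusted p = 0.00352 and 0.00924) and Trak2, a kinesin adaptor gene, fell (-0.39 and -0.35, adjusted p = 0.00282 and 0.00595). Stradb, a pseudokinase gene, fell in shDRG2 cells (-0.40, adjusted p = 0.0166) and stood at -0.21 in pLKO cells (adjusted p = 0.184).

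Bid (chromosome 6, 120891930 to 120916853, minus strand), the link to mitochondria, had 58.1 and 52.2 CPM in shDRG2 libraries with IFN-γ, against 27.1 and 23.9 CPM without it (2.16-fold, adjusted p = 1.86e-05). With pLKO the values were 59.5 and 52.0 CPM with IFN-γ, against 26.9 and 28.6 CPM without it (2.01-fold, adjusted p = 4.34e-05). Exons of Bcl2l13 on the other strand cover 17.7% of the exon bases of Bid, and strandedness is not stated, so some of these reads may belong to that gene. The same limit applies to 6.12% of Fadd, under the antisense gene Faddos, and to 2.89% of Ripk1, opposite Serpinb6a. A processed pseudogene, Gm17084, shares a further 6.12% of Ripk1 on the same strand.

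The fibroblast and endothelial marker sums also stood lower with IFN-γ in both lines. The 5 fibroblast markers summed to 4.16 to 5.74 CPM in shDRG2 and 5.64 to 5.70 CPM in pLKO libraries with IFN-γ, against 18.0 to 19.5 CPM in unstimulated shDRG2 and 15.8 to 18.9 CPM in unstimulated pLKO libraries, most of it Col1a2. Dcn, a defining marker of that list, had 0.0333 CPM at most. The 4 endothelial markers summed to at most 0.700 CPM with IFN-γ. Without it they summed to 5.00 to 5.91 CPM in shDRG2 and 1.497 to 2.16 CPM in pLKO libraries. Vwf had the highest mean of the 4 over all libraries (1.76 CPM), and Cdh5 and Kdr stood at 0. The 6 leukocyte markers summed to 0.0999 to 0.137 CPM in shDRG2 and 0.222 to 0.305 CPM in pLKO libraries with IFN-γ, against 0.187 to 0.271 CPM in unstimulated shDRG2 and 0.122 to 0.313 CPM in unstimulated pLKO libraries, so the pLKO groups overlapped. The 4 epithelial markers summed to 0.164 to 0.267 CPM in shDRG2 and 0.297 to 0.426 CPM in pLKO libraries with IFN-γ, against 0.504 to 0.653 CPM in unstimulated shDRG2 and 0.306 to 0.688 CPM in unstimulated pLKO libraries, again overlapping in pLKO cells. The 7 melanocytic markers summed to 9621 to 11057 CPM with IFN-γ, against 12911 to 14944 CPM without it. Their part in the members' changes was not tested. In such bulk libraries fewer cells of a type and less RNA per cell cannot be told apart.

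Whether shDRG2 cells answered IFN-γ differently was tested as the difference between both responses. None of the 10 members was called, none had an unadjusted p under 0.05, and DESeq2 and limma-voom called none either, while 0.00741% of all tested genes were called. The difference was -0.17 for Tnfrsf10b (interval -0.60 to 0.25), -0.05 for Tnfrsf1a (-0.35 to 0.24), 0.12 for Ripk1 (-0.18 to 0.42) and 0.10 for Bid (-0.22 to 0.42). For Tnfsf10 the interval was wide, from -2.41 to 3.09, with 4 counts in each unstimulated group. That of Fas was wide too, from -1.51 to 2.87 around 0.68, with 3 counts in unstimulated shDRG2 and 5 in unstimulated pLKO cells. These intervals bound a difference and do not show that the responses were equal.

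The wider pathway was read from 4 further lists of 82 genes, of which 64 were tested. These lists too were chosen with earlier results of these data known. IFN-γ raised 24 and lowered 7 of the 64 in shDRG2 cells and raised 24 and lowered 6 in pLKO cells, with 23 higher and 6 lower in both lines. Across all tested genes the shares were 16.2% higher and 15.2% lower in shDRG2 cells and 15.4% higher and 12.7% lower in pLKO cells. Of the 64, Tnfrsf14, Tnfrsf23, Traf5 and Zbp1 passed the filter on low counts only through IFN-γ libraries and Tnfaip3 only through unstimulated ones. Without these, 21 of 59 were higher and 7 lower in shDRG2 cells, and 21 higher and 6 lower in pLKO cells. For the difference between the responses none was called by edgeR, DESeq2 or limma-voom, and 1 had an unadjusted p under 0.05.

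Among ligands, other receptors and decoys, 3 of 7 genes rose and 1 fell in each line, leaving aside Tnfrsf14 and Tnfrsf23 (median log2 change 0.34 in shDRG2 and 0.23 in pLKO cells). Over all tested genes 16.2% rose and 15.2% fell in shDRG2 cells, and 15.4% rose and 12.7% fell in pLKO cells. Tnfrsf21, which encodes death receptor 6, had 28.4 and 26.3 CPM in shDRG2 and 23.0 and 21.02 CPM in pLKO libraries with IFN-γ, against 2.08 and 1.90 CPM in unstimulated shDRG2 and 2.11 and 1.91 CPM in unstimulated pLKO libraries (adjusted p = 8.23e-09 and 1.63e-08 for shDRG2 and pLKO cells). Tnfrsf14, the herpesvirus entry mediator gene, had 4.73 and 5.36 CPM in shDRG2 and 5.12 and 5.51 CPM in pLKO libraries with IFN-γ, against 0.435 and 0.271 CPM in unstimulated shDRG2 and 0.122 and 0.0626 CPM in unstimulated pLKO libraries. Tnfrsf12a, the TWEAK receptor gene, rose by 0.93 and 0.85 on the log2 scale in shDRG2 and pLKO cells (adjusted p = 0.000429 and 0.000887).

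Eda2r, the ectodysplasin A2 receptor gene, was, like Tnfrsf10b, lowest in shDRG2 cells with IFN-γ and highest in unstimulated pLKO cells, though the groups between stood in the other order. It had 9.46 and 10.6 CPM in shDRG2 and 17.8 and 15.4 CPM in pLKO libraries with IFN-γ, against 23.8 and 28.9 CPM in unstimulated shDRG2 and 38.9 and 37.5 CPM in unstimulated pLKO libraries. It fell with IFN-γ in both lines (log2 -1.39 in shDRG2 and -1.20 in pLKO cells, adjusted p = 1.41e-05 and 3.63e-05). It was also the 1 gene of the 64 called between the lines with IFN-γ (log2 -0.72, SE 0.126, adjusted p = 0.0216), in a comparison where 1.67% of all tested genes were called. With no filter 3 of the 64 were called there. Without IFN-γ none of the 64 was called between the lines by edgeR, while 9 had an unadjusted p under 0.05, DESeq2 called 2, limma-voom 1 and edgeR with no filter 4. The remaining 12 genes of the ligand and receptor list were not tested, having at most 9 counts in any library. They include the ligand genes Fasl, with at most 1 count, Tnf, with at most 4, and Lta, with at most 3.

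In the list of the TNF receptor complex and its ubiquitin regulators, 11 of 20 genes rose and 2 fell in each line, leaving aside Zbp1, Traf5 and Tnfaip3, with medians of 0.32 in shDRG2 and 0.30 in pLKO cells. The shares over all tested genes were 16.2% higher and 15.2% lower in shDRG2 cells and 15.4% higher and 12.7% lower in pLKO cells. Zbp1, a nucleic acid sensor that binds RIP kinases, had 552 and 479 CPM in shDRG2 and 426 and 462 CPM in pLKO libraries with IFN-γ, against 0.218 and 0.116 CPM in unstimulated shDRG2 and 0.153 and 0.219 CPM in unstimulated pLKO libraries, or at most 7 counts. Mlkl, the effector of necroptosis, had 216 and 193 CPM in shDRG2 and 185 and 201 CPM in pLKO libraries with IFN-γ, against 49.8 and 51.2 CPM in unstimulated shDRG2 and 54.9 and 54.2 CPM in unstimulated pLKO libraries (adjusted p = 3.93e-08 and 9.05e-08). Ripk3, the kinase that acts on MLKL protein, had no count in any library, where 3 counts would be 0.0821 to 0.116 CPM. Rnf31, the catalytic subunit gene of the linear ubiquitin ligase, rose by 2.09 and 1.92 on the log2 scale in shDRG2 and pLKO cells. Traf5, a receptor-associated factor, had 1.03 and 1.149 CPM in shDRG2 and 0.556 and 0.609 CPM in pLKO libraries with IFN-γ, against 0.280 and 0.310 CPM in unstimulated shDRG2 and 0.153 and 0.219 CPM in unstimulated pLKO libraries, or at most 9 counts.

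Among death domain and death effector domain proteins, 2 of 11 rose and 2 fell in shDRG2 cells, and 1 rose and 2 fell in pLKO cells, counts near the shares over all tested genes. Daxx, a Fas-binding and chromatin protein gene, rose by 1.59 and 1.38 in shDRG2 and pLKO cells, Pidd1, a p53-induced death domain gene, fell (-0.64 and -0.89), and so did Pea15a, a death effector domain gene (-0.55 and -0.36). Madd, which encodes a TNF receptor-binding protein, rose in shDRG2 cells (0.31, adjusted p = 0.0258) and stood at 0.23 in pLKO cells (adjusted p = 0.0969), and the difference between the responses was 0.09 (adjusted p = 1.00). In the list of the mitochondrial step and executioners, 5 of 21 rose and 2 fell in shDRG2 cells and 6 rose and 1 fell in pLKO cells, with medians of 0.01 and -0.01. Over all tested genes the shares were 16.2% higher and 15.2% lower in shDRG2 cells and 15.4% higher and 12.7% lower in pLKO cells. The genes of BH3-only proteins Bmf (1.10 and 1.22) and Bbc3 (0.57 and 0.63) and that of the pore former Bak1 (0.72 and 0.70) rose in shDRG2 and pLKO cells. Parp1 fell in both lines (-0.43 and -0.41). Bax, another pore former gene, fell in shDRG2 cells (-0.32, adjusted p = 0.0125) and stood at -0.24 in pLKO cells (adjusted p = 0.0561).

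**Figure D4:**
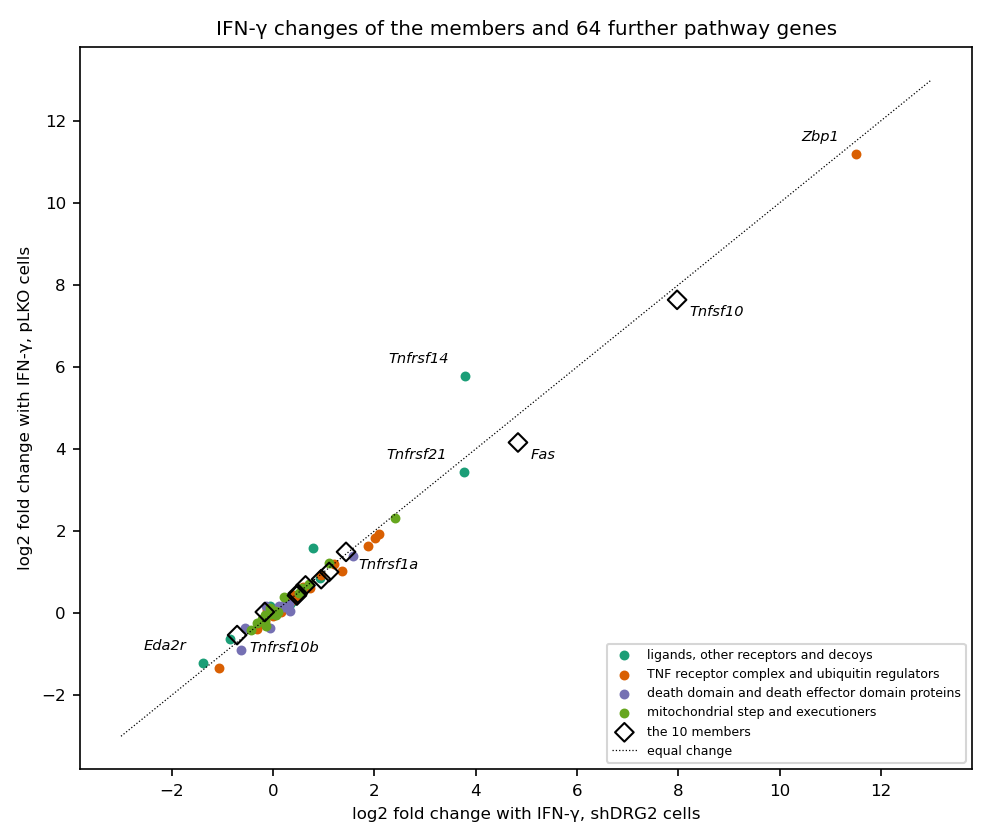
Log2 fold change with IFN-γ in shDRG2 cells (horizontal axis) and in pLKO cells (vertical axis) for the 10 members (diamonds) and 64 tested genes of the further lists (coloured by list), with a dotted line of equal change. Tnfsf10 lies at a fitted 7.98 and 7.64 and Tnfrsf10b at -0.71 and -0.53.

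The genes whose pattern was most like that of a member were taken by Pearson's r of log2 CPM over the 8 libraries, among tested genes averaging at least 1 CPM. For Tnfrsf10b they were Fermt2 (r = 0.989) and Slc4a7 (0.985), both on chromosome 14, and Kif26b (0.986), Deptor (0.984) and Syt4 (0.984) on other chromosomes. For Tnfsf10 they were H2-DMa (0.999), Scfd1 (0.999), BC023105 (0.999), Zfp953 (0.999) and Enc1 (0.998). For Fas they were Nudt13, RP23-253G12.9, Enpp4, Gm7609 and Vcpip1, each at 0.997. All of these values rest on 8 libraries that share the split by line and by IFN-γ, and they are descriptions with no test.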

How the data were processed

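RNA of B16F10 cells was sequenced in 8 libraries. The authors deposited a table of expected counts, meaning estimated reads for each gene with no normalisation. Per the submitters' processing notes STAR, Salmon 1.5.2 and mm10 were used, with no role or order given. The annotation release and library strandedness: not given in the sources used here. The labels describe 2 read lengths and sequencers without saying which library had which.

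Counts were rounded and tested with edgeR 4.0.16 (R 4.3.3). Of 45583 entries, 27 with date-like names (0.204% to 0.212% of a library's counts) were left out. filterByExpr over the 4 groups kept 13500 genes, scaled by TMM (factors 0.973 to 1.04). A quasi-likelihood model with 1 coefficient per group was fitted to all libraries (residual df 4, prior df 6.10) and tested on simulated data. Tests were two-sided, with Benjamini-Hochberg adjustment over all tested genes at 0.05. SE and 95% intervals come from the F statistic. CPM used TMM-adjusted library sizes. Alternatives included DESeq2 1.42.0 and limma-voom (limma 3.58.1). Positions and exon lengths are from GENCODE M21 (GRCm38, the assembly of mm10).

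The members and lists were chosen with earlier results of these data known. All 10 members were described. Of each list, at most the 4 called genes with the largest change were named, and of the most similar genes the first 5. Bax and Parp1 were named in addition, as the called falls of the mitochondrial list. Some items covered by these rules are not reported here.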

Additional observations from a re-analysis of the deposited data

How the results depend on the processing

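Of the 10 members, 1 (Tnfrsf10b) was called between the lines with IFN-γ and 1 without it. With no filter on low counts 2 were called with IFN-γ, the second being Tnfsf10. Leaving out 1 library at a time gave 0 to 1 called members with IFN-γ and 0 to 1 without it. The lone library left in a group was then assumed to vary like the other groups. In those fits some differences that were not called changed sign. With IFN-γ the log2 difference between the lines ran from -0.059 to 0.12 for Tnfrsf1a, -0.11 to 0.15 for Fadd, -0.056 to 0.14 for Ripk1 and -0.11 to 0.086 for Bid, and without IFN-γ from -0.14 to 0.059 for Casp8. The cause was not tested. Fas was not tested under a minimum mean of 1 CPM. RLE, upper-quartile and library-size scaling, TMM without chromosome 14, the mean CPM filter, DESeq2 and limma-voom kept Tnfrsf10b called in the IFN-γ comparison of each line and between the lines in both conditions.

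Groups share only the replicate numbers 1 and 2. Same-numbered libraries deviated together by a correlation of 0.107 to 0.274 across genes over the pairs of groups. With the replicate number as a block, Tnfrsf10b stood at -1.11 between the lines with IFN-γ (edgeR adjusted p = 0.000816) and -0.94 without it (0.00208). No member's call changed. Of the 64 further pathway genes, the block called 3 between the lines with IFN-γ, against 1, and 4 without it, against 0. The calls over all genes came to 675 with the block against 226 with IFN-γ, and 673 against 162 without it.

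Over all genes, the calls between the lines depended more on the setting. With no filter there were 653 with IFN-γ, against 226, and 678 without it, against 162. DESeq2 called 302 without IFN-γ. Leaving out 1 library gave 44 to 202 with IFN-γ and 27 to 167 without it. For the difference between the responses 1 gene was called, against 58 with no filter, 7 by DESeq2 and 2 with the replicate block. Depth limits Tnfsf10 and Fas, which had 1 to 3 counts in each unstimulated library.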
